A study of Mus musculus with 12 samples.

Results

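Ribosome biogenesis and RNA polymerase I genes were followed in FL5.12 cells, a mouse BALB/c lymphoid precursor line that grows in culture, engineered to express MycER. The set holds 56 genes chosen by name, of which 55 were found among the 21671 genes measured, and Noc2l was not analysed here. All 55 passed the filter on low values, so none was dropped for being weakly expressed in one group. MycER is the Myc transcription factor fused to a hormone-binding domain that 4-hydroxytamoxifen (OHT) activates, and IACS-010759 (IACS) is an inhibitor of mitochondrial complex I. Total RNA was sequenced from 4 groups with 3 libraries each, all from cells carrying MycER. Untreated cells received neither compound. OHT cells were primed with 100 nM OHT for 48 h and kept in it for 24 h more, which makes 72 h in all. IACS cells received 135 nM IACS-010759 for the last 24 h without OHT, and OHT_IACS cells were primed with OHT in the same way and then given both compounds. No library came from cells without MycER, so an effect of OHT that does not pass through MycER cannot be told apart from MycER activation.

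Ribosomes are built in the nucleolus, where RNA polymerase I transcribes the long precursor of most ribosomal RNA. Small nucleolar ribonucleoproteins (snoRNPs) then modify that precursor: the box C/D type guides methylation of the ribose and the box H/ACA type guides pseudouridylation. The small subunit processome, a large assembly around the U3 snoRNA, folds and cleaves the part that becomes the small subunit, while other factors assemble the large subunit and carry both towards the cytoplasm. Myc is known as an activator of many of these genes, often through the sequence CACGTG, the canonical E-box.

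Library totals, worked out from the deposited values, were 13375674, 14550158 and 14281395 reads in untreated cells and 10376530, 13956222 and 10770476 in OHT cells. IACS libraries had 13076509, 13729131 and 11133789 reads and OHT_IACS libraries 11913079, 11804978 and 11792608. Thus OHT replicate 2 was as deep as the untreated libraries, while OHT replicates 1 and 3 had 0.776 and 0.805 times the total of untreated replicate 1. Reads on the most abundant genes grew less than in proportion to the total. That raises the RPKM (reads per kilobase of gene, scaled to the library total) of such genes in shallow libraries. OHT replicate 2 is therefore shown apart for the 55 genes. Among pro-B cell markers, Pax5, Il7r, Kit, Rag1 and Dntt were listed at 0 RPKM in all 12 libraries, while Ptprc, a pan-leukocyte gene, was at 15.05 to 19.3 RPKM, Il3ra, a receptor chain for interleukin-3, averaged 7.66, and Cd79a was at 0.511 to 1.59. Markers of other lineages were mostly low, with Mpo (myeloid) at 8.65 to 13.7 RPKM and Klf1 (erythroid) at 4.92 to 13.7. The summed levels of the 5 myeloid markers were 14.9 to 16.3 RPKM in untreated, 10.2 to 12.5 in OHT, 12.7 to 15.4 in IACS and 9.77 to 10.55 in OHT_IACS cells. Those of the 3 erythroid markers measured were 13.8 to 14.6, 10.3 to 11.9, 7.81 to 8.90 and 6.85 to 7.48 in the same order. The 4 T cell markers summed to 1.78 to 2.15, 0.911 to 1.09, 1.58 to 2.34 and 1.42 to 1.79 RPKM, and Cd3e was listed at 0. In bulk RNA, fewer cells of one kind and less RNA per cell cannot be told apart, and the part of these levels in the results was not tested. Reads on the 55 genes made up 1.24% to 1.42% of the reads on all genes.

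E-boxes stood in the promoters of few of these genes. A window from 250 bases before to 50 bases after the transcription start was held for 47 of the 55 genes (RefSeq, GRCm38.p6), and 10 of them, or 21.3%, contained CACGTG, a palindrome that reads alike on both strands. The same was true of 12.5% of the 7366 genes tested that have a window. A gene with several windows counted if any of them held the motif. Counted by single windows, the share was 7.15% of all 32851. The 10 sites are shown because CACGTG is the motif that Myc is best known to bind. Each is given with up to 12 flanking bases on either side, on the strand of its gene, 5′ to 3′, with the motif in capitals.
Grwd1, chr7:45830740-45830767, minus strand: gggccggagtcgCACGTGtgaaaccgga
Imp4, chr1:34439696-34439725, plus strand: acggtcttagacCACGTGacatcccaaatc
Ltv1, chr10:13193092-13193121, minus strand: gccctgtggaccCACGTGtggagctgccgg
Nop2, chr6:125131811-125131840, plus strand: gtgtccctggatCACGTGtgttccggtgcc
Pes1, chr11:3963965-3963994, plus strand: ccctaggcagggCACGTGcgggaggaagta
Pno1, chr11:17211540-17211564, minus strand: tgtacaaccacgCACGTGttcctct
Tsr1, chr11:74898092-74898121, plus strand: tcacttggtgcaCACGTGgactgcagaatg
Utp18, chr11:93885769-93885798, minus strand: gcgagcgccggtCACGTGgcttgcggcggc
Utp20, chr10:88826765-88826789, minus strand: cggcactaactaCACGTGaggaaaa
Wdr43, chr17:71616220-71616249, plus strand: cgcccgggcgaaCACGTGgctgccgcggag
Counting from the transcription start, the site began 121 bases before it in Imp4, 60 before it in Nop2 and 20 before it in Utp18. In the other 7 genes it lay inside the transcribed part, beginning between base 3 (Pes1) and base 38 (Pno1 and Utp20). A related sequence, CACGCG on either strand, was held by 31.9% of the 47 genes against 20.9% of the genes tested that have a window. CCGGAAG on either strand, the core recognised by ETS family factors, was in 36.2% against 23.6%. None of the 3 motifs contains another, although neighbouring matches can share bases.

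The genes with the largest increases after MycER activation, Rrp9 and Polr1a (values below), had none of the 3 motifs in the window. Their 250 bases before the start are shown for that reason, in lower case because no motif was found in them.
Rrp9, chr9:106477059-106477308, plus strand: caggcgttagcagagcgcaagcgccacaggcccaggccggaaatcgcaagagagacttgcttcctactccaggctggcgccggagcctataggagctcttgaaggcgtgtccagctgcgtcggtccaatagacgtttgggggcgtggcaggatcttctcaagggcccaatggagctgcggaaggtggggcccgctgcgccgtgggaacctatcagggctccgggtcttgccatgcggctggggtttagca
Polr1a, chr6:71908803-71909052, plus strand: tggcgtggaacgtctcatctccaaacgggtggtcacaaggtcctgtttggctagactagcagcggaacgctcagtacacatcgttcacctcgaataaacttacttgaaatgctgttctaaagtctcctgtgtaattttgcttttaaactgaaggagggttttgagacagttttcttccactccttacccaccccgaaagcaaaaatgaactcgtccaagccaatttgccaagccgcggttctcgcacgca
The absence of these letters from the window says nothing of Myc binding elsewhere. Of the 47 genes with a window, the 10 holding CACGTG changed by a median of 0.11 on the log2 scale in OHT cells and 5 of them rose, while the 37 lacking it changed by 0.21 and 18 of them rose. The median was thus not larger in the genes that hold the E-box, which is a description without a test.

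After MycER activation many genes of the set were called higher, and none was called lower in the main fit. Comparing OHT with untreated cells addresses what MycER activation alone does to these genes. In this comparison 26 of the 55 genes rose and 0 fell (limma, Benjamini-Hochberg adjusted p under 0.05 over 9745 genes), against 18.2% of all genes tested called higher and 18.2% called lower. The median log2 fold change of the 55 was 0.19, with a range from -0.11 to 0.64, beside 0.01 over all genes tested. On the scaled values, which all counts of groups without overlap use, 31 genes were higher without overlap and 1 (Noc3l) was lower, against 22.5% and 23.5% of all genes tested. The increases were modest: the largest, of Rrp9, was 1.56-fold.

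**Figure D1:**
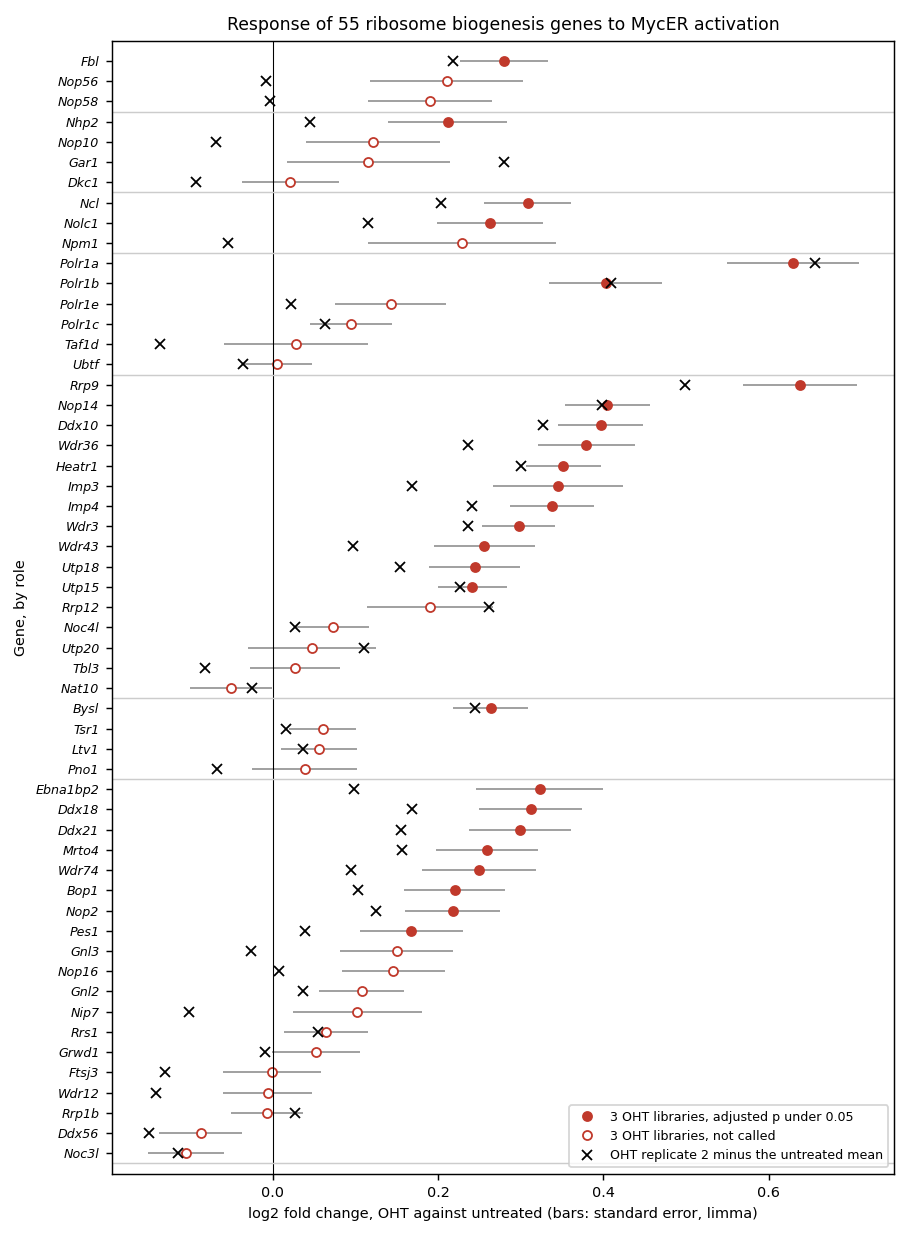
Log2 fold change of each of the 55 genes in OHT against untreated cells (horizontal axis) by gene and role (vertical axis, roles separated by grey lines). Circles are the limma estimates over 3 against 3 libraries with their standard errors, filled for the 26 called genes, and crosses give OHT replicate 2 alone minus the untreated mean. The crosses lie close to the circles for Polr1a, Polr1b, Nop14 and Bysl and to the left of zero for Npm1, Dkc1 and Ftsj3.

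The response differed between the OHT libraries in step with their totals. Against the untreated mean, the median shift of the 55 genes on the log2 scale was 0.27 in OHT replicate 1, 0.06 in replicate 2 and 0.25 in replicate 3, while the untreated libraries lay between -0.01 and 0.01. Nonetheless 35 of the 55 genes in OHT replicate 2 were above all 3 untreated libraries, against 38% of all genes tested, and 10 were below them, against 36.9%. In replicate 1 the counts were 49 and 4, against 41.3% and 39.5% of all genes tested, and in replicate 3 they were 47 and 3, against 41.6% and 38.1%. Refitting with OHT replicate 2 as the sole OHT library, on the assumption that it varies like the other groups, called 13 of the 55 genes higher and 0 lower, with 19.4% of all genes tested called in either direction. All 13 were among the 26: Fbl, Ncl, Polr1a, Polr1b, Heatr1, Utp15, Wdr3, Wdr36, Imp4, Rrp9, Nop14, Ddx10 and Bysl. These 13 also stayed called under every other alternative run, and the other 13 lost the call in at least 1 alternative. Leaving out OHT replicate 2 instead called 35 genes, with 42.3% of all genes tested called in either direction.

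**Figure D2:**
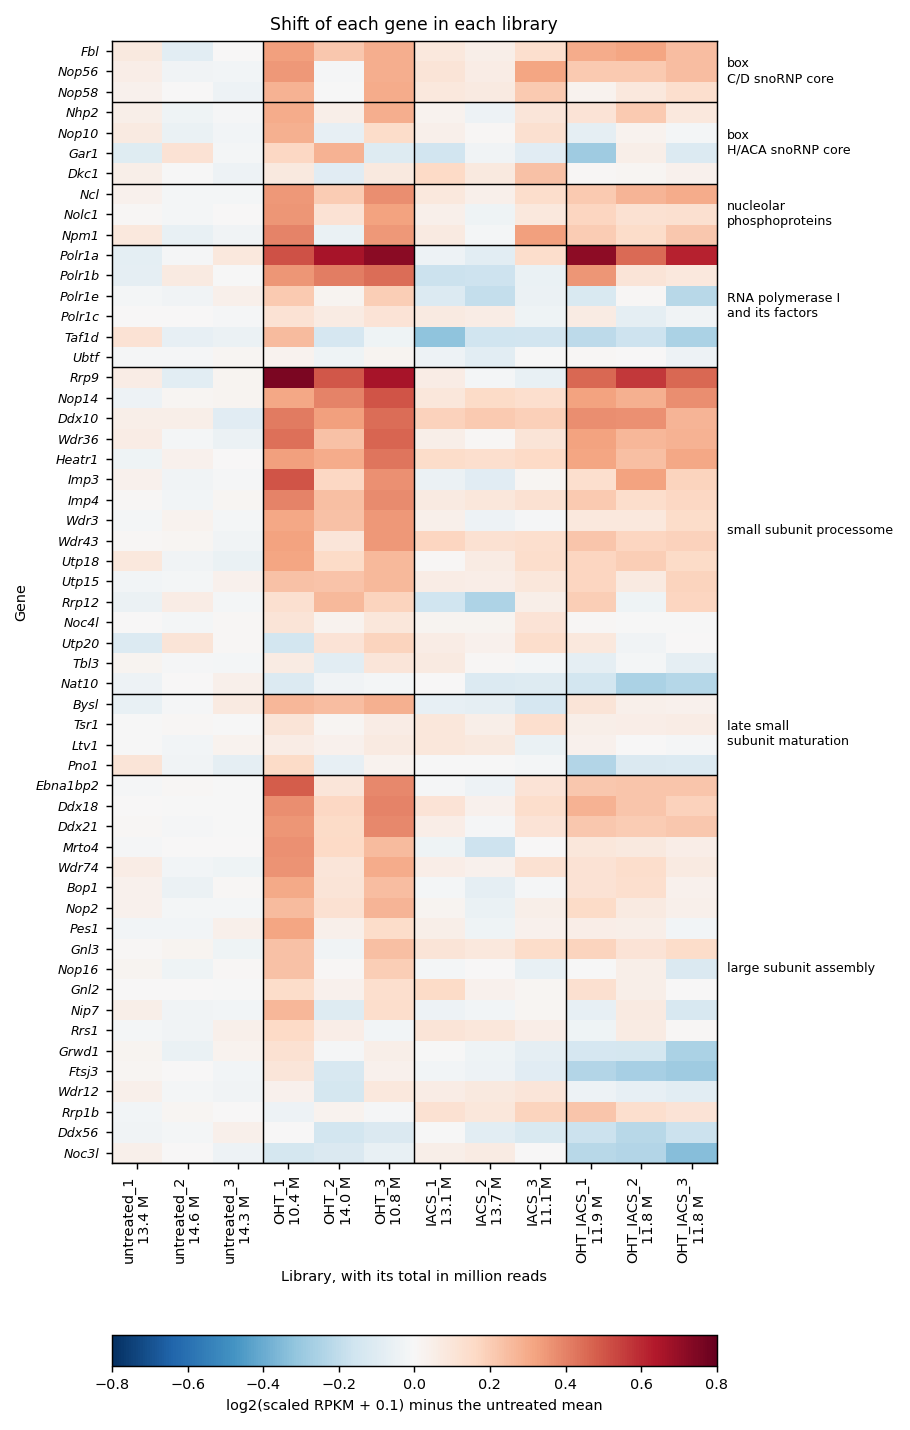
Shift of each of the 55 genes (rows, by role) in each of the 12 libraries (columns, with library totals), as log2(scaled RPKM + 0.1) minus the untreated mean, red for higher and blue for lower. OHT replicates 1 and 3 are red across most rows, with median shifts of 0.27 and 0.25. In OHT replicate 2, with a median shift of 0.06, 38 of the 55 genes lie above the untreated mean. Its largest shifts are of Polr1a (0.66), Rrp9 (0.50) and Polr1b (0.41).

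RNA polymerase I itself was represented by both of its largest subunits. Polr1a encodes the largest, and its RPKM was 9.14, 9.61 and 10.4 in untreated and 13.6, 15.8 and 16.6 in OHT cells. It rose by 0.63 on the log2 scale (SE 0.080, limma adjusted p = 5.07e-05), and the depth-matched OHT replicate 2 stood higher than replicate 1. Polr1b, the second-largest subunit, was at 15.7, 17.4 and 16.7 RPKM in untreated and 20.8, 22.7 and 23.3 in OHT cells, a log2 fold change of 0.40 (SE 0.068, limma adjusted p = 0.000531). For both genes every OHT library was above every untreated one. Not all factors of this polymerase followed. Polr1c, a subunit shared with RNA polymerase III, was at 37.6, 37.8 and 37.9 RPKM in untreated and 40.2, 40.7 and 42.0 in OHT cells (log2 fold change 0.09, limma adjusted p = 0.15). Polr1e, a subunit found only in RNA polymerase I, was at 11.8, 11.8 and 12.5 against 13.7, 12.6 and 14.2 RPKM (0.14, limma adjusted p = 0.112). Neither passed the test, although the libraries of Polr1c did not overlap, nor did those of Polr1e on RPKM as deposited. Ubtf, which binds the ribosomal DNA repeats and helps to keep them open, was at 27.2, 27.3 and 28.0 RPKM in untreated and 27.5, 27.6 and 28.9 in OHT cells (0.01). Taf1d, a subunit of the promoter selectivity factor SL1, was at 35.1, 31.0 and 31.8 against 38.2, 30.6 and 32.9 RPKM (0.03). These last genes overlapped between the groups, and the 95% interval of the difference was -0.08 to 0.10 for Ubtf and -0.16 to 0.22 for Taf1d.

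The small subunit processome held more of the calls than any other role. Of its 16 genes 11 rose and 0 fell, with a median log2 fold change of 0.28, and its median shift was 0.31, 0.23 and 0.35 in OHT replicates 1 to 3, so the deep library lay near the shallow ones. Rrp9, a protein bound to the U3 snoRNA, was at 41.4, 37.6 and 40.8 RPKM in untreated and 66.3, 58.2 and 65.1 in OHT cells and rose by 0.64 (SE 0.069, limma adjusted p = 1.48e-05). Nop14, which joins Noc4l in the early pre-small-subunit particle, was at 12.8, 13.3 and 13.5 against 16.1, 17.95 and 19.3 RPKM and rose by 0.40 (SE 0.051, limma adjusted p = 5.07e-05). Ddx10, a DEAD-box helicase, was at 16.3, 16.3 and 14.9 against 20.8, 20.5 and 22.3 RPKM and also rose by 0.40 (SE 0.051, limma adjusted p = 5.62e-05). In all 3 genes the lowest OHT library was above the highest untreated one. Several members of the UTP-A and UTP-B subcomplexes, which bind the precursor first, rose too. In the former, Heatr1 rose by 0.35, Utp15 by 0.24 and Wdr43 by 0.26. In the latter, Wdr36 rose by 0.38, Wdr3 by 0.30 and Utp18 by 0.24, while Tbl3 (0.03) did not. The U3 partners Imp3 and Imp4 rose by 0.34 and 0.34. The remaining 5 did not pass the test: Rrp12 (0.19, limma adjusted p = 0.0671), Noc4l (0.07), Utp20 (0.05), Tbl3 (0.03) and Nat10 (-0.05), the last of which acetylates small subunit rRNA.

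The snoRNP core proteins were more abundant and less clear. Fbl (fibrillarin), the methyltransferase of box C/D snoRNPs, was at 36.9, 33.1 and 35.5 RPKM in untreated and 43.4, 42.2 and 44.4 in OHT cells and rose by 0.28 (SE 0.054, limma adjusted p = 0.00127). Its scaffold partners Nop56 and Nop58 did not pass the test: Nop56 was at 78.0, 73.9 and 75.3 against 94.8, 77.7 and 95.7 RPKM (0.21, limma adjusted p = 0.091). Nop58 was at 50.4, 49.5 and 48.7 against 59.2, 51.0 and 62.7 RPKM (0.19, limma adjusted p = 0.0639). For both scaffolds only the shallow OHT libraries stood apart on the scaled values, and OHT replicate 2 lay at the untreated level. In the box H/ACA core, Dkc1 (dyskerin), the pseudouridine synthase, was at 41.4, 40.1 and 39.5 against 41.9, 39.0 and 43.9 RPKM (0.02). Its partner Nhp2 was at 56.7, 53.8 and 55.2 against 66.8, 58.8 and 69.7 RPKM and rose by 0.21 (SE 0.072, limma adjusted p = 0.0353). Nop10 was at 69.2, 63.5 and 65.8 against 79.0, 65.1 and 75.7 RPKM and Gar1 at 8.47, 9.84 and 9.09 against 10.1, 11.4 and 8.77. Dkc1, Nop10 and Gar1 overlapped between the groups, and the call of Nhp2 was lost with OHT replicate 2 alone. With the library total as a covariate Dkc1 instead fell by 0.10 (limma adjusted p = 0.0465).

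The nucleolar phosphoproteins were 2 called of 3. Ncl (nucleolin), a histone chaperone and pre-rRNA binding protein, was at 29.5, 28.6 and 29.0 RPKM in untreated and 36.3, 34.5 and 38.9 in OHT cells and rose by 0.31 (SE 0.053, limma adjusted p = 0.000594). Nolc1, which accompanies snoRNPs, was at 52.2, 51.3 and 52.7 against 65.4, 58.2 and 67.2 RPKM and rose by 0.26 (SE 0.064, limma adjusted p = 0.0063). In both, all OHT libraries were higher than all untreated libraries, with replicate 2 the lowest of the OHT group. Npm1 (nucleophosmin) was at 80.1, 72.7 and 74.9 against 98.1, 75.3 and 99.5 RPKM (0.23, SE 0.113, limma adjusted p = 0.129). The 2 shallow OHT libraries of Npm1 were high and the deep one sat among the untreated values.

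**Figure D3:**
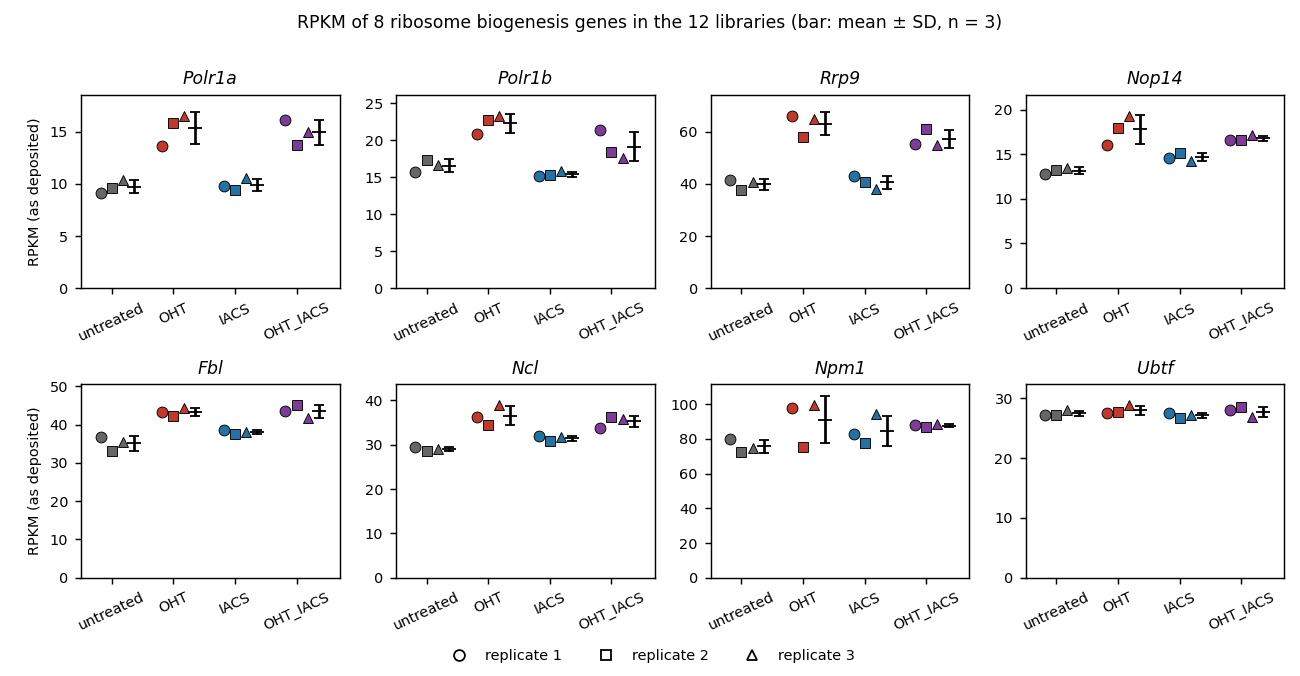
RPKM as deposited (vertical axes from 0) of 8 genes in the 4 groups (horizontal axes), 1 symbol per library with replicates 1 to 3 as circle, square and triangle, and the mean ± SD over 3 libraries beside them. Polr1a runs from 9.14 to 10.4 in untreated and 13.6 to 16.6 in OHT cells, whereas in Npm1 the OHT square, at 75.3, lies with the untreated libraries.

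The steadiness of Npm1 reads illustrates what RPKM can carry here. It had 1689 to 1795 reads in every one of the 12 libraries while the totals ran from 10376530 to 14550158 reads, so its RPKM followed the inverse of the total. Nop56 behaved alike, with 1921 to 2191 reads, and both had over 1 read per base of gene, averaged over the libraries. Polr1a, at 0.155 reads per base, had 1092, 1249 and 1324 reads in untreated and 1262, 1973 and 1594 in OHT libraries. Grouping by reads per base, the median log2 fold change with OHT of all genes tested rose from 0.02 at 0.1 to 0.3 reads per base to 0.08 at 0.3 to 0.5, 0.14 at 0.5 to 1 and 0.22 at 1 and over. The 55 genes had medians of 0.19, 0.10, 0.22 and 0.22 in the same classes, from 19, 15, 19 and 2 genes. The 19 genes in the lowest of these classes thus lay furthest above the genes of like coverage, and their median shift was 0.21, 0.15 and 0.19 in OHT replicates 1 to 3. The other 36 had 0.29, 0.04 and 0.25.

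**Figure D4:**
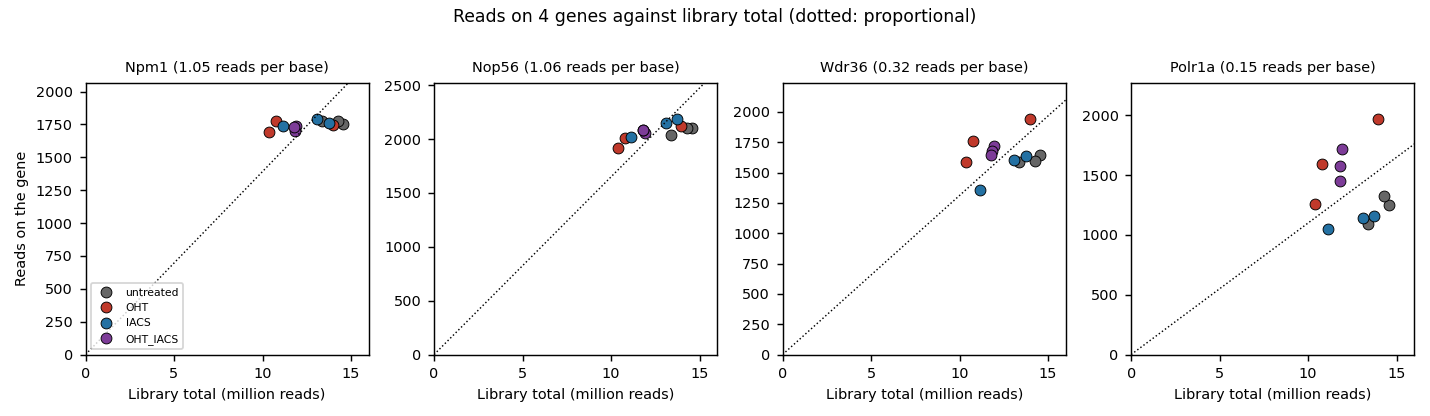
Reads on Npm1, Nop56, Wdr36 and Polr1a (vertical axes from 0) against the library total (horizontal axes), 1 point per library coloured by group. The dotted line is the proportional expectation, reads times the mean ratio of reads to total. Npm1 is flat between 1689 and 1795 reads, while Polr1a reaches 1973 reads in OHT replicate 2 against 1092 to 1324 in untreated libraries.

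Later steps of ribosome assembly gave a mixed picture. Of the 4 late small subunit factors, Bysl (bystin) rose, from 14.3, 14.9 and 15.9 RPKM to 17.7, 18.4 and 18.9 (log2 fold change 0.26, SE 0.045, limma adjusted p = 0.000546). Tsr1 (0.06), Ltv1 (0.06) and Pno1 (0.04) did not pass the test. Of the 19 large subunit factors, 8 rose and 0 fell, with a median of 0.15. They included Ebna1bp2 (0.32), the helicases Ddx18 (0.31) and Ddx21 (0.30), Mrto4 (0.26), Wdr74 (0.25) and the rRNA methyltransferase Nop2 (0.22). All 8 calls were lost with OHT replicate 2 as the sole OHT library. The PeBoW complex, which is needed to process the large subunit rRNA, did not move as a unit. Bop1 was at 54.4, 51.6 and 54.3 RPKM in untreated and 65.0, 59.2 and 65.6 in OHT cells and rose by 0.22 (SE 0.061, limma adjusted p = 0.0128). Pes1 was at 31.6, 31.7 and 33.6 against 39.5, 34.2 and 36.9 RPKM and rose by 0.17, at the edge of the threshold (SE 0.062, limma adjusted p = 0.05). Wdr12 was at 19.7, 19.0 and 19.1 against 19.4, 17.998 and 21.1 RPKM (-0.01) and overlapped. At the lower end, Noc3l was at 14.8, 14.4 and 14.2 against 12.9, 13.7 and 14.3 RPKM (-0.11, limma adjusted p = 0.092; without overlap only after scaling), and Ddx56 (-0.09) did not pass the test either.

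The 94 other genes of the pathway that were listed mostly moved upward too. With OHT 52 of them rose and 3 fell, against 18.2% of all genes tested called higher and 18.2% called lower. Their median log2 fold change was 0.18 with all OHT libraries used, and OHT replicate 2 alone was not examined for them. The calls were 23 higher and 2 lower among 39 large subunit factors and 20 and 1 among 36 small subunit factors. There were 5 and 0 among 10 RNA polymerase I factors, and 4 and 0 among 9 snoRNP assembly factors. The largest increases without overlap were of Naf1 (0.62, limma adjusted p = 1.86e-05), an assembly factor of H/ACA snoRNPs, Cirh1a (0.57, limma adjusted p = 5.9e-06), a UTP-A protein, and Znhit6 (0.53, limma adjusted p = 0.000435), an assembly factor of C/D snoRNPs. Those that fell were Zfp593 (-0.59, limma adjusted p = 0.000319), Wdr46 (-0.17, limma adjusted p = 0.0315) and Ddx54 (-0.16, limma adjusted p = 0.0222).

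Complex I inhibition in cells without OHT left the set close to the untreated level. Comparing IACS with untreated cells, 2 of the 55 genes rose and 0 fell, against 8.15% and 7.74% of all genes tested. Of the 55, 8 had an unadjusted limma p under 0.05, against 2969 of the 9745 genes tested. Without overlap 18 were higher and 4 lower, against 19.9% and 18.7% of all genes tested. The median log2 fold change was 0.04, from -0.21 (Taf1d) to 0.19 (Ddx10), beside 0.0038 over all genes tested. Ddx10 was at 18.6, 18.9 and 17.9 RPKM in IACS cells, above its untreated 14.9 to 16.3, and rose by 0.19 (SE 0.051, limma adjusted p = 0.0203). Heatr1 was at 25.7, 25.4 and 24.7 RPKM against 21.7, 22.8 and 22.5 untreated and rose by 0.15 (SE 0.045, limma adjusted p = 0.0408). Neither call held in all settings, and with the library total as a covariate the called genes were Taf1d and Mrto4, both lower. IACS replicate 3, the shallowest of its group, had the highest median shift, 0.09, against 0.05 and 0.01 in replicates 1 and 2. Polr1a and Polr1b were at 9.43 to 10.6 and 15.2 to 15.8 RPKM in IACS cells, overlapping their untreated ranges, and neither passed the test. Among the 94 other genes 4 rose and 3 fell, led by Tma16 (0.26, limma adjusted p = 0.0254), Gtpbp4 (0.25, limma adjusted p = 0.00381) and Nol10 (0.20, limma adjusted p = 0.036) upward. The 3 that fell were Znhit3 (-0.46, limma adjusted p = 0.00208), Abt1 (-0.25, limma adjusted p = 0.0193) and Pdcd11 (-0.14, limma adjusted p = 0.0489).

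In OHT-primed cells the inhibitor lowered part of the set when all OHT libraries were used. OHT_IACS against OHT called 11 of the 55 genes lower and 1 higher, against 11.8% and 11.9% of all genes tested, with a median log2 fold change of -0.10 beside -0.01 over all genes. With OHT replicate 2 as the sole OHT library the median was -0.01. Without OHT replicate 2, 30 genes were called, with 30.3% of all genes tested called in either direction. Groups did not overlap for 14 lower genes and 1 higher gene, against 19.1% and 17.8% of all genes tested. None of the 12 calls held in every setting run. They are given as values because their number depended on which OHT libraries were used. How far the size of a change did so differed between genes. Against the untreated mean, Polr1b stood at 0.35, 0.41 and 0.45 on the log2 scale in OHT replicates 1 to 3. Imp4 stood at 0.39, 0.24 and 0.38. Ftsj3, a methyltransferase of the pre-60S particle, was at 59.1, 53.1 and 59.5 RPKM in OHT and 48.3, 48.3 and 46.4 in OHT_IACS cells and fell by 0.26 (SE 0.059, limma adjusted p = 0.00724). Polr1e was at 13.7, 12.6 and 14.2 against 11.1, 12.5 and 10.3 RPKM and fell by 0.25 (SE 0.067, limma adjusted p = 0.0161). Grwd1, a histone-binding nucleolar protein, was at 44.9, 43.0 and 44.7 against 38.6, 39.4 and 35.4 RPKM and fell by 0.23 (SE 0.053, limma adjusted p = 0.00836). All OHT_IACS libraries of these genes were below all OHT libraries, although for Polr1e the nearest libraries were 12.5 and 12.6 RPKM. Bysl went from 17.7, 18.4 and 18.9 to 16.3, 15.9 and 15.4 RPKM and fell by 0.20 (SE 0.045, limma adjusted p = 0.00606). Wdr3 went from 19.97, 19.96 and 21.6 to 17.6, 17.99 and 18.2 RPKM and fell by 0.19 (SE 0.044, limma adjusted p = 0.00745). The other calls were Polr1b, Imp4, Nat10, Pno1, Noc3l and Mrto4 lower and Rrp1b, a nucleolar scaffold protein, higher by 0.16. Polr1b also overlapped between the groups, at 20.8, 22.7 and 23.3 RPKM against 21.4, 18.3 and 17.6.

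The 94 other genes gave 20 lower and 3 higher in the same comparison, against 11.8% and 11.9% of all genes tested. Their median was -0.10 with all OHT libraries used, and OHT replicate 2 alone was not examined for them. Znhit3 (-0.51, limma adjusted p = 0.000847), Rrp36 (-0.28, limma adjusted p = 0.00166) and Cd3eap (-0.27, limma adjusted p = 0.00125), a subunit of RNA polymerase I, were the lowest. Tcof1 (0.31, limma adjusted p = 0.0153), which acts with Ubtf on ribosomal DNA, Ddx54 (0.23, limma adjusted p = 0.00657) and Gltscr2 (0.16, limma adjusted p = 0.0474) were the 3 higher.

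With complex I inhibited in both groups, MycER activation still raised some genes of the set. Library totals were 11792608 to 11913079 reads in OHT_IACS cells and 11133789 to 13729131 in IACS cells. IACS replicates 1 and 2 were deeper than every OHT_IACS library. OHT_IACS against IACS called 11 of the 55 genes higher and 2 lower, against 12.3% and 14.2% of all genes tested. The median log2 fold change was 0.04 beside -0.0032 over all genes, and without overlap 20 genes were higher and 10 lower, against 20.1% and 22.2%. Polr1a was at 9.78, 9.43 and 10.6 RPKM in IACS and 16.1, 13.7 and 14.96 in OHT_IACS cells and rose by 0.59 (SE 0.080, limma adjusted p = 0.000138). Rrp9 was at 43.1, 40.8 and 37.9 against 55.5, 61.1 and 55.1 RPKM and rose by 0.50 (SE 0.069, limma adjusted p = 0.000163). Polr1b was at 15.2, 15.2 and 15.8 against 21.4, 18.3 and 17.6 RPKM and rose by 0.31 (SE 0.068, limma adjusted p = 0.00433). Imp3 was at 50.8, 49.1 and 50.8 against 56.2, 65.5 and 57.5 RPKM and rose by 0.25 (SE 0.079, limma adjusted p = 0.0293). In these genes every OHT_IACS library was above every IACS library. Fbl (0.20), Ncl (0.17), Heatr1 (0.14), Wdr36 (0.23), Nop14 (0.20), Rrp12 (0.23) and Bysl (0.15) rose as well, the libraries of Rrp12 overlapping. Noc3l, a factor of the early large subunit precursor, was at 15.4, 15.6 and 14.3 against 12.5, 12.7 and 11.4 RPKM and fell by 0.30 (SE 0.046, limma adjusted p = 0.000371). Ftsj3 fell by 0.21 (limma adjusted p = 0.0185). Of the 13 calls, Polr1a, Polr1b, Wdr36, Rrp9 and Noc3l held in every setting run. The snoRNP scaffolds showed no such change: Nop56 was at 84.3, 81.7 and 93.1 against 88.3, 90.3 and 90.3 RPKM (0.06) and Nop58 at 54.3, 53.9 and 56.6 against 51.1, 54.1 and 54.5 (-0.04). Dkc1 was at 46.7, 44.1 and 47.1 RPKM in IACS and 40.9, 42.0 and 41.4 in OHT_IACS cells (-0.14, limma adjusted p = 0.0939), and did not pass the test although its libraries did not overlap. Npm1 was at 82.7, 77.4 and 94.2 against 88.0, 86.7 and 88.5 RPKM (0.06). Among the 94 other genes 25 rose and 9 fell.

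**Figure D5:**
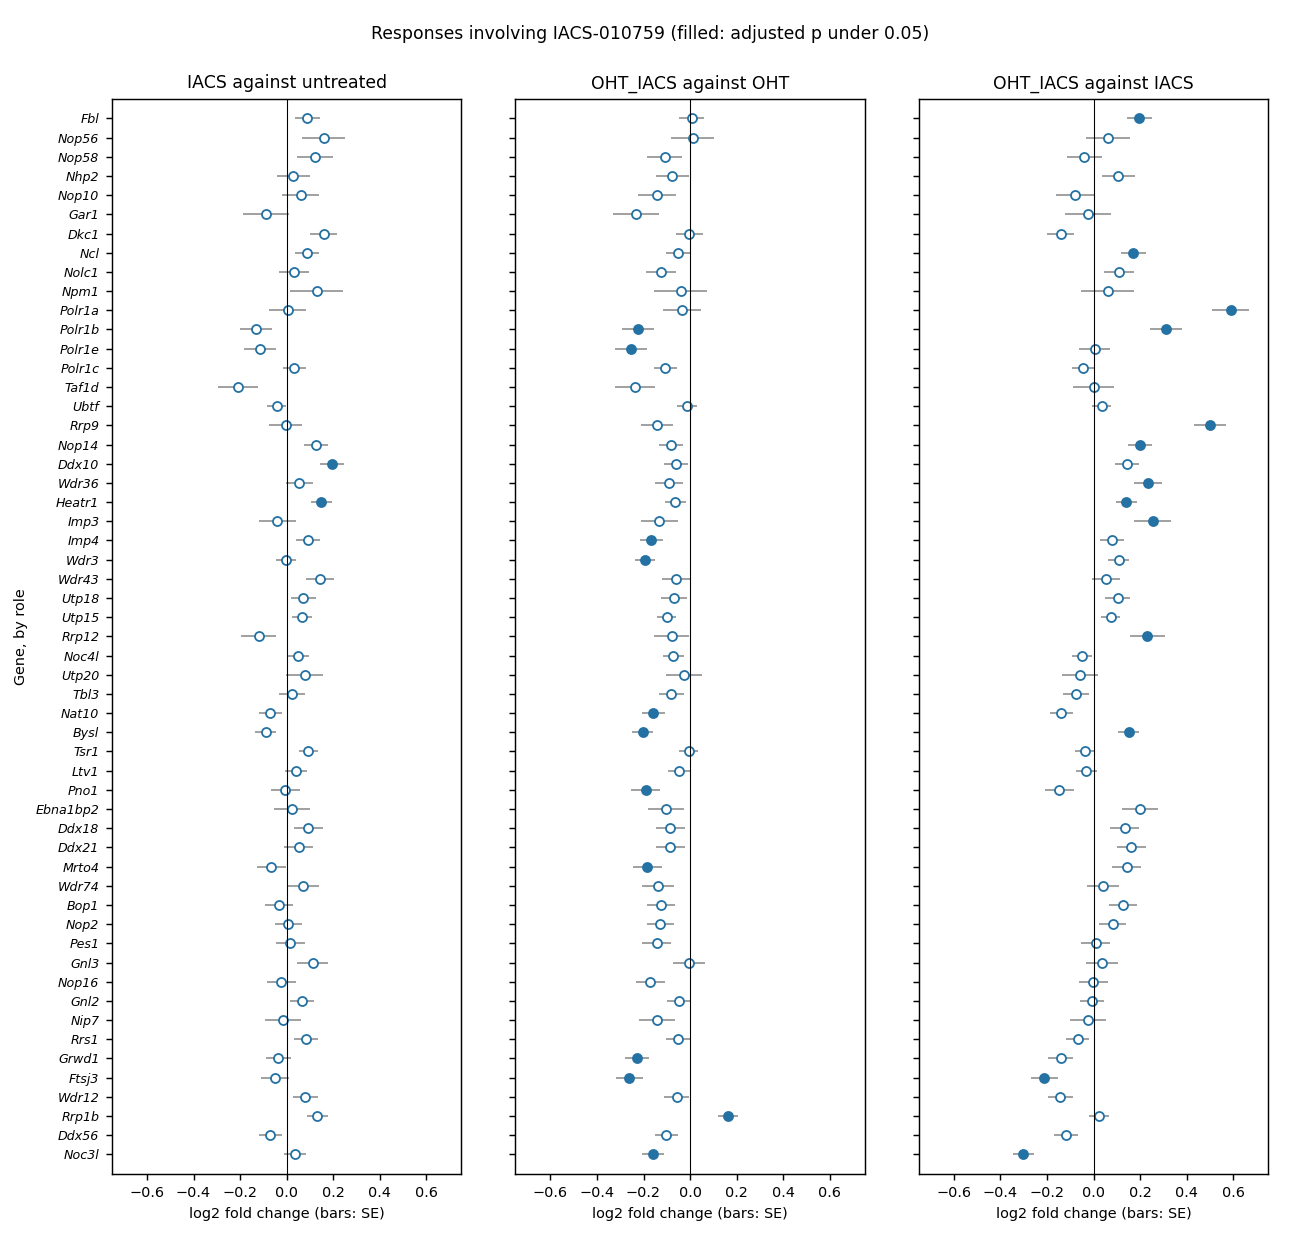
Log2 fold changes with standard errors (limma, horizontal axes) of the 55 genes (vertical axis, by role as above) in IACS against untreated, OHT_IACS against OHT and OHT_IACS against IACS cells, filled where called. There are 2, 12 and 13 filled points, and Polr1a (0.59) and Rrp9 (0.50) stand furthest right in the third panel.

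Whether priming changed the response to the inhibitor was tested as the interaction of both treatments. None of the 55 genes passed (limma, 0 called), and 0.144% of all genes tested were called, all of them higher. An unadjusted limma p under 0.05 was found for 11 of the 55, against 1240 of the 9745 genes tested. The median interaction was -0.14 on the log2 scale beside -0.01 over all genes tested. Of the 55 estimates 52 were below zero, against 5213 of the 9745. The median of all genes tested was -0.02 at 0.1 to 0.3 reads per base, -0.06 at 0.3 to 0.5, -0.10 at 0.5 to 1 and -0.13 at 1 and over. The 55 genes had medians of -0.12, -0.13, -0.15 and -0.16 in the same classes. With OHT replicate 2 as the sole OHT library the median of the 55 was -0.04. The lowest estimates were of Imp4 (-0.26, limma adjusted p = 0.173), Ddx10 (-0.25, limma adjusted p = 0.179) and Nop58 (-0.23, limma adjusted p = 0.393). All comparisons use the same 12 libraries, and those that share a group are not independent of each other.

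Some features of the genes bear on how these values can be read. In the GENCODE vM21 annotation 8 of the 55 genes, or 14.5%, hold at least 1 snoRNA gene on their own strand, against 3.13% of 9386 genes tested that it lists. The 8 are Nop56, Nop58, Dkc1, Ncl, Taf1d, Wdr43, Tsr1 and Gnl3, with 29 snoRNA genes among them, 8 of these in Taf1d. In OHT cells the 8 host genes changed by a median of 0.17 on the log2 scale, 2 of them being called, and the other 47 genes by 0.21. Furthermore, 23 of the 55 genes share exon positions with a gene on the opposite strand, among them Polr1a, Rrp9, Nop14, Heatr1, Imp4 and Bysl. The library kit keeps strand, but whether counting used it is not given in the sources used here, so reads of such pairs may not be told apart. Processed copies, which are known for genes such as Npm1, may also take reads or give them, and how reads with several positions were treated is not given either.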

How the data were processed

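Total RNA of 12 libraries was depleted of ribosomal RNA and sequenced with a strand-keeping kit. Per the labels, the submitters' processing notes name TopHat2 2.0.8, SAMtools, featureCounts 1.4.5-p1, DESeq2 and the mm9 build. The authors deposited 1 table of RPKM per gene and library. Its columns of log2 fold changes and adjusted p-values from the authors' own comparisons were not used.

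Whole reads, gene lengths and library totals were recovered from the RPKM steps (15451 of 15451 genes above 0 came out whole, tolerance 0.001). Libraries were scaled by median ratios. The 9745 genes reaching an RPKM of 1 in 3 or more libraries were fitted as log2(RPKM + 0.1) with limma 3.58.1 (R 4.3.3), all 12 libraries in one model of group means with a variance trend, 2-sided, Benjamini-Hochberg adjusted within each comparison at 0.05. Fold changes on this scale understate those of low genes. In data simulated for OHT against untreated (9666 genes), the fit called 77 of 100 genes given a log2 change of 0.5. It called 100 of 100 given a change of 1 and 9 of 9466 left unchanged. The changed genes were drawn from those with more reads. Simulated reads grew in proportion to the library total, unlike those of abundant genes here, so calls that arise from depth were not covered. Replicates differed by more than counting noise (chi-square of 1.08 to 1.88 per gene over 12 pairs of libraries). The study describes them as biological replicates, and p-values measure the spread between them.

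Members, roles and gene lists were chosen with earlier results of these data known. Per-library values are given for the snoRNP core, PeBoW, phosphoprotein and RNA polymerase I genes and, in each comparison, for up to 5 called genes with the largest changes and no overlap, with up to 3 in each direction of the other listed genes. Other genes are named with their fold changes to account for the set. Promoter sequences are from RefSeq (GRCm38.p6), not the build of the table.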

Additional observations from a re-analysis of the deposited data

Results flagged for a closer look

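For 3 genes all IACS libraries lay above all untreated libraries while all OHT_IACS libraries lay below all OHT libraries, so that the response to IACS-010759 pointed in opposite directions without and with OHT priming. For Imp4 the log2 fold changes were 0.09 and -0.17, a difference of -0.2587 (limma interaction, adjusted p = 0.173). For Utp15 they were 0.07 and -0.10, a difference of -0.1678 (limma interaction, adjusted p = 0.278). For Noc4l they were 0.05 and -0.07, a difference of -0.1218 (limma interaction, adjusted p = 0.45). None of the 3 differences passed the test. Of the 6 single responses only the fall of Imp4 in primed cells did (limma adjusted p = 0.0304). Imp4 stood 0.39, 0.24 and 0.38 above the untreated mean in OHT replicates 1 to 3, on the log2 scale. In OHT_IACS replicates 1 to 3 it stood 0.21, 0.14 and 0.17 above that mean, and the call did not hold in every setting run.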

How the results depend on the processing

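Rises with OHT were called for 26 genes. With OHT replicate 2 as the sole OHT library the count was 13, and leaving out 1 library each gave 23 to 35. The median log2 fold change of 0.19 was 0.0844 with quantile normalization, 0.0988 with the library total as a covariate, 0.0826 with cyclic loess (chosen after seeing the data), 0.0655 with OHT replicate 2 alone and 0.147 to 0.248 with 1 library left out. The first 3 of these settings gave 2, 1 and 3 called decreases (Ddx56 and Ftsj3, Dkc1, and all of these genes), against 0 in the main fit, and 22, 20 and 22 increases. Dkc1 changed from 0.02 to -0.103 with the covariate and -0.0849 with cyclic loess. For IACS against untreated, the 2 calls became 1 without a filter on low values, 4 on RPKM as deposited, 6 with quantile normalization, 1 without a variance trend, 7 with cyclic loess and 0 to 1 with 1 library left out, and the median became -0.0178 with the covariate. For OHT_IACS against OHT, the 12 calls became 20 with the covariate, 2 in a fit of the compared groups only (Wdr3 and Bysl), 0 with OHT replicate 2 as the sole OHT library and 5 to 30 with 1 library left out, the highest without OHT replicate 2, 7 and 5 without OHT replicates 1 and 3, 7 and 5 without OHT_IACS replicates 2 and 3. The median moved from -0.10 to -0.0125 with OHT replicate 2 alone. For OHT_IACS against IACS, the 13 calls became 22, 21 and 23 with quantile normalization, the covariate and cyclic loess, 8 of them lower in each, and 6 to 12 with 1 library left out (6 without IACS replicate 1 or 2, 8 without OHT_IACS replicate 3). For the interaction, leaving out 1 library gave 0 to 4 calls, the 4 (Nop58, Wdr43, Imp4 and Ftsj3, all lower) without OHT replicate 2, and the median was -0.0387 with OHT replicate 2 alone. The share of all genes tested that was called moved with the setting too. For OHT against untreated it was 36.4% in the main fit and 42.3% without OHT replicate 2. For IACS against untreated it was 15.9%, and 21.1% with quantile normalization. For OHT_IACS against OHT it was 23.7%, 30.3% without OHT replicate 2 and 16.1% with the compared groups only. For OHT_IACS against IACS it was 26.5%, and 31.0% with quantile normalization. The cause of these shifts was not tested. Of 5390 alternative values of single genes, 5093 kept their call status, 168 lost a call and 127 gained one. The remaining 2 changed sign with a call in either fit. Changes of sign in genes called in neither fit are among the 5093. Npm1 with OHT, for example, ran from -0.073 to 0.37 over the settings. Same-numbered libraries of OHT and untreated cells deviated together only weakly (correlations over genes of 0.083, 0.104 and 0.088, each the highest for its number), and those of IACS and untreated cells did not (down to -0.133), so the numbers were not taken as pairs. With the replicate block the counts were 26, 2, 12, 13 and 0, as without it. Depth limits the abundant genes most: the 19 genes under 0.3 reads per base, a group added after seeing the data, had a median of 0.19 with OHT.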
